A study of Mus musculus with 6 samples.

Results

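The transcripts of 10 nuclear receptors that govern xenobiotic and lipid metabolism in hepatocytes were followed in the livers of mice given vehicle or esculetin. The 10 genes were chosen by name (Nr1i2, Nr1i3, Rxra, Rxrb, Nr1h3, Nr1h2, Hnf4a, Nr5a2, Thrb and Nr2f6), not by their values, and are 10 of the 55357 genes in the deposited count table. The choice of a family to describe was made with earlier results of these data known. All mice were wild-type males of the C57BL/6J strain, 8 to 9 weeks old. By oral gavage over 7 days, the vehicle group received 2.5% Tween-80 and the other group received esculetin, a coumarin derivative. All of them ate a control diet (10% of kcal from fat) for 4 days and a high-fat diet (HFD, 60% of kcal from fat) for the 3 days after that, so both groups carry the effect of the diet, and mice without HFD were not analysed here. For the dose of esculetin, the protocol has 180 mg/kg/d, and the sample titles and the column names of the count table carry the number 180. The treatment field has 90 mg/kg/d. The study's captions also give 90 mg/kg/d for the liver RNA sequencing, and its caption on apoptosis genes lists 180 mg/kg/d as well. The group is therefore named without a dose. Each group had 3 RNA sequencing libraries, and each library pooled the livers of 2 mice. The p-values below therefore measure the spread between pools.

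Nuclear receptors are transcription factors with a zinc-finger DNA-binding domain and a pocket for a small lipophilic ligand. In hepatocytes, the pregnane X receptor (PXR, Nr1i2) and the constitutive androstane receptor (CAR, Nr1i3) sense drugs and bile acids and induce genes of detoxification. The liver X receptors (LXRα, Nr1h3, and LXRβ, Nr1h2) sense oxysterols and drive sterol export and lipogenesis. All 4 bind DNA with a retinoid X receptor (RXRα, Rxra, or RXRβ, Rxrb), as does the thyroid hormone receptor β (Thrb). Hepatocyte nuclear factor 4α (Hnf4a) holds the hepatocyte programme as a homodimer, liver receptor homolog 1 (LRH-1, Nr5a2) acts as a monomer on bile acid and cholesterol genes, and Nr2f6 (EAR2) is an orphan receptor known mainly as a repressor.

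Total counts lay between 27957713 and 34920922 per library, with all 3 esculetin totals above all 3 vehicle totals. With that many counts, 3 counts amount to 0.0865 to 0.109 CPM (counts scaled for library size, here with edgeR's TMM method), far below the level of any of the 10 receptors. Summed hepatocyte markers (7 genes, Alb and Ttr among them) were at 84148 to 86979 CPM with vehicle and at 81536 to 88557 CPM with esculetin, and Kupffer cell markers (8 genes) at 308 to 411 and 316 to 324 CPM. Cholangiocyte markers (5 genes) summed to 39.5 to 80.4 CPM with vehicle and 30.3 to 45.7 CPM with esculetin. Of 4 adipocyte markers only 1 passed the filter on low counts, and Lep was at 0 in every library. Their sums were low, at 0 to 0.613 CPM with vehicle and 0.894 to 1.19 CPM with esculetin. These sums did not overlap, and 9.2% of all genes tested had every esculetin library above every vehicle library. The part of these shifts in the receptor values was not tested. In whole liver, fewer cells of a type and less RNA per cell cannot be told apart.

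Of the 10 receptors, PXR and CAR transcripts were higher with esculetin, by 1.23-fold and 1.31-fold, and the other 8 lay within 1.2-fold of vehicle. All 10 passed the filter on low counts, and all would have passed it on the vehicle libraries alone. In edgeR's quasi-likelihood test 2 members had an unadjusted p under 0.05, where 11.9% of the 14433 genes tested did so. Both were higher, as were 6.53% of all genes. In 2 members every esculetin library lay above every vehicle library, against 9.2% of all genes. None (0) passed the thresholds of the study (p under 0.05 and a fold change over 1.5), which 3.13% of genes passed, and DESeq2 and limma-voom also called 0. After Benjamini-Hochberg adjustment over all genes 0 members were under 0.05, with edgeR, DESeq2 and limma-voom alike. That threshold was passed by 0.0416% of all genes with edgeR. The median log2 fold change was 0.03 over the members and -0.01 over all genes tested, and 5 members had a positive and 5 a negative estimate.

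**Figure D1:**
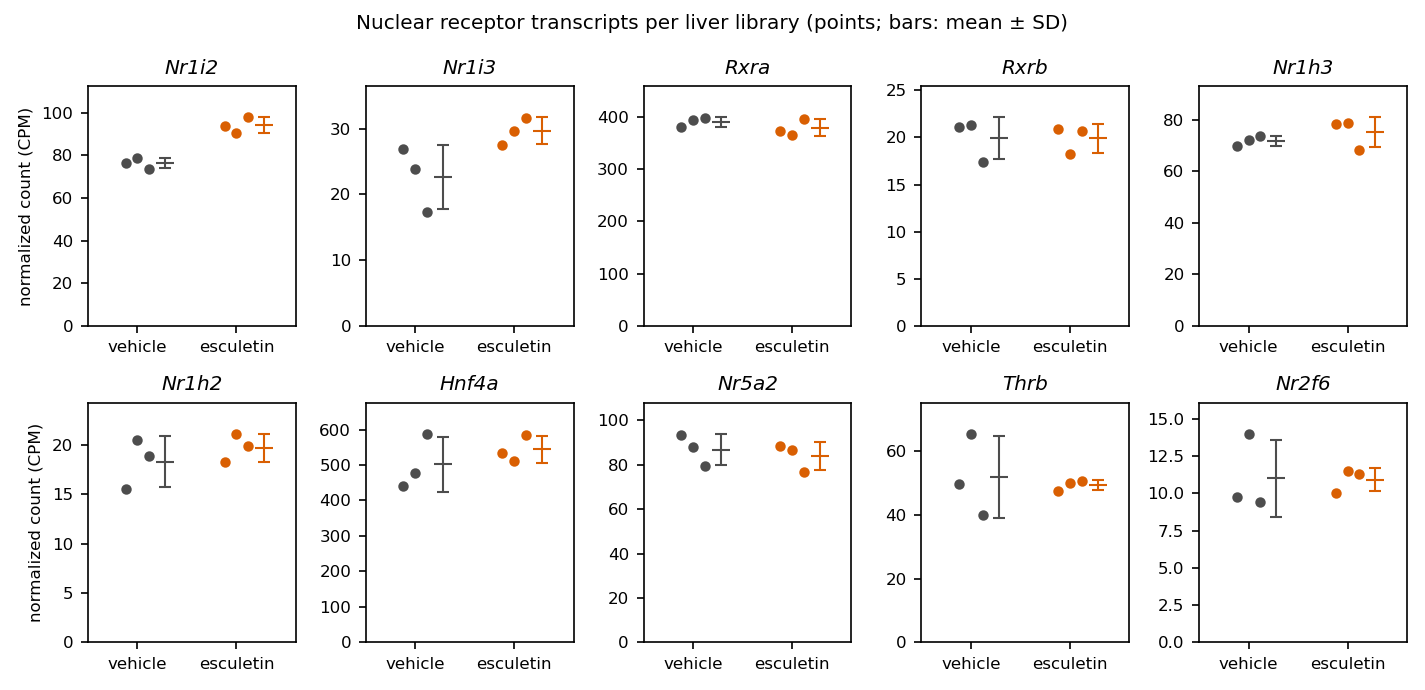
TMM-normalized counts (CPM) of each receptor in the 3 vehicle and the 3 esculetin libraries (points), with the mean ± SD beside them, each panel on its own axis from 0. The groups are apart for Nr1i2 and Nr1i3 and overlap for the other 8 receptors.

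The xenobiotic receptors come first. Nr1i2 (ENSMUSG00000022809, minus strand of GRCm39 chr16:38068685-38115216) encodes PXR, whose ligands include steroids, bile acids and many drugs. Nr1i2 stood at 76.4, 78.7 and 73.7 CPM in the vehicle libraries and at 93.9, 90.3 and 97.8 CPM in the esculetin libraries. The groups did not overlap, and the lowest esculetin library was well clear of the highest vehicle library. The group means were 76.3 ± 2.49 and 94.0 ± 3.71 CPM (SD, n = 3 each). The log2 fold change was 0.30 (SE 0.0718; fold change 1.23, 95% interval 1.1 to 1.38), with an unadjusted p = 0.00196 and an adjusted p = 0.172 over all genes tested (edgeR). With all 6 libraries kept, the adjusted p of Nr1i2 ranged from 0.0622 with DESeq2 to 0.311 with a replicate block. The unadjusted p of Nr1i2 stayed under 0.05 in the 8 alternatives with all libraries and in the 6 with one library left out, with log2 fold changes of 0.27 to 0.33.

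Nr1i3 (ENSMUSG00000005677, plus strand of chr1:171041506-171048270) encodes CAR, which waits in the cytosol and moves to the nucleus on exposure to inducers such as phenobarbital. Its counts were 26.9, 23.8 and 17.4 CPM with vehicle and 27.6, 29.6 and 31.7 CPM with esculetin. The groups did not overlap, but by a narrow margin, since the highest vehicle library lay just under the lowest esculetin library and vehicle library 3 was far lower than the rest. The log2 fold change was 0.39 (SE 0.145; fold change 1.31, 95% interval 1.04 to 1.64), with an unadjusted p = 0.0244 and an adjusted p = 0.345 (edgeR). With no filter on low counts the adjusted p of Nr1i3 was 0.0482, and over the other alternatives with all libraries it was above 0.05. Without vehicle library 3 the log2 fold change of Nr1i3 was 0.23 (unadjusted p = 0.0621), without esculetin library 2 it was 0.39 (unadjusted p = 0.0512) and without esculetin library 3 it was 0.34 (unadjusted p = 0.0684), so the call at an unadjusted p under 0.05 rested on those 3 libraries. On the annotation, 75.4% of the exon bases of Nr1i3 lie on the opposite strand of exons of Tomm40l, and the strand setting of the counting is not given in the sources used here. Reads from those bases can therefore not be assigned with certainty, and Tomm40l itself had 1291 counts over the 6 libraries and a log2 fold change of -0.09.

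The sequences just upstream of these 2 genes are shown because they are the members whose counts were higher in every esculetin library, beside a start of their shared partner Rxra. They are RefSeq promoter windows, placed on GRCm39 by a unique exact match, cut to bases outside annotated exons and written 5′ to 3′ on the strand of the gene. Capitals mark AGGTCA or its reverse complement TGACCT, the hexamer that these receptors recognize, most of them in pairs.
Nr1i2, chr16:38115217-38115436, minus strand: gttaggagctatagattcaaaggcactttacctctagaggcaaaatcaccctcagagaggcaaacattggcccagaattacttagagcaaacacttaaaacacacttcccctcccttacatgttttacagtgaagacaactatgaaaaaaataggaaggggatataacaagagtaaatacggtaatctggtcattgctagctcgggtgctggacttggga
Nr1i3, chr1:171041289-171041505, plus strand: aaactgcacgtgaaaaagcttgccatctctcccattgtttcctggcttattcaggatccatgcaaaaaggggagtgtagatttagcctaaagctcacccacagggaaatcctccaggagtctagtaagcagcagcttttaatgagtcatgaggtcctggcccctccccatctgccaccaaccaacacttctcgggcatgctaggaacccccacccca
Rxra, the downstream start, chr2:27599054-27599303, plus strand: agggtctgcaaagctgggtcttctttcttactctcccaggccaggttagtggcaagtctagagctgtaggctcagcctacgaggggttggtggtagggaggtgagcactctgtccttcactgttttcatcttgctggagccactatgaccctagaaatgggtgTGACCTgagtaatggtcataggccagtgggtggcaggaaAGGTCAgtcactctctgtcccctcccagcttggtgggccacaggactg
In the 250 bases before the start, neither Nr1i2 nor Nr1i3 held AGGTCA on either strand. The Rxra window held it on the forward strand, beginning 48 bases before the start, and on the reverse strand, 87 bases before, while the window at the upstream start of Rxra held none. A window of Nr5a2 held it 64 bases before its start and a window of Thrb 184 bases before. Of all 32851 promoter windows of that length, 14% held AGGTCA on at least 1 strand. The related hexamer AGTTCA, present in 11.8% of windows, was found in another Thrb window, and no member had 2 such hexamers in the same direction 1 to 5 bases apart, which 0.174% of windows had. A match of letters is a description and not a binding site.

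Neither of the shared partners passed the test. Rxra (ENSMUSG00000015846, plus strand of chr2:27566452-27653330) encodes the main hepatic RXR and was at 380, 394 and 397 CPM with vehicle and at 373, 366 and 396 CPM with esculetin. The groups overlapped, with the lowest 2 libraries both from the esculetin group. The log2 fold change of Rxra was -0.04 (95% interval -0.21 to 0.12, unadjusted p = 0.552). Rxrb (ENSMUSG00000039656, plus strand of chr17:34250759-34257376), the more widely expressed RXR, was at 21.1, 21.3 and 17.4 CPM against 20.9, 18.2 and 20.7 CPM. The ranges of Rxrb coincided, and its fold change was 0.997 (95% interval 0.84 to 1.18, unadjusted p = 0.973).

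Because PXR and CAR need an RXR, their length-scaled levels (TPM, counts scaled by exon length and by the library total) were also set against that of Rxra within each library, a comparison added after the data were seen. The ratio of Nr1i2 to Rxra was 0.511, 0.508 and 0.472 with vehicle and 0.64, 0.627 and 0.627 with esculetin. The ratio of Nr1i3 to Rxra was 0.105, 0.0895 and 0.0647 with vehicle and 0.11, 0.12 and 0.118 with esculetin. The counts of Rxra varied little (SD 2.32% of the mean with vehicle and 4.19% with esculetin), so both ratios largely repeat the values of Nr1i2 and Nr1i3. Neither ratio overlapped between the groups, though without vehicle library 3 the log2 difference of Nr1i3 over Rxra was 0.26 in place of 0.45. An exact two-sided permutation test gave p = 0.1 for each, the smallest value that 3 libraries against 3 allow, and 0.3 after adjustment over the 6 ratios compared. Within the pair of xenobiotic receptors, Nr1i3 over Nr1i2 was 0.173 ± 0.034 with vehicle and 0.184 ± 0.0107 with esculetin (SD, n = 3; exact permutation p = 0.8). The level of each ratio with Nr1i3 rests on its full exon length, while the difference between groups does not depend on length. The Rxra over Rxrb ratio was 12.4 ± 1.69 and 12.0 ± 0.719 (exact permutation p = 0.8). For these 2 ratios the groups overlapped.

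**Figure D2:**
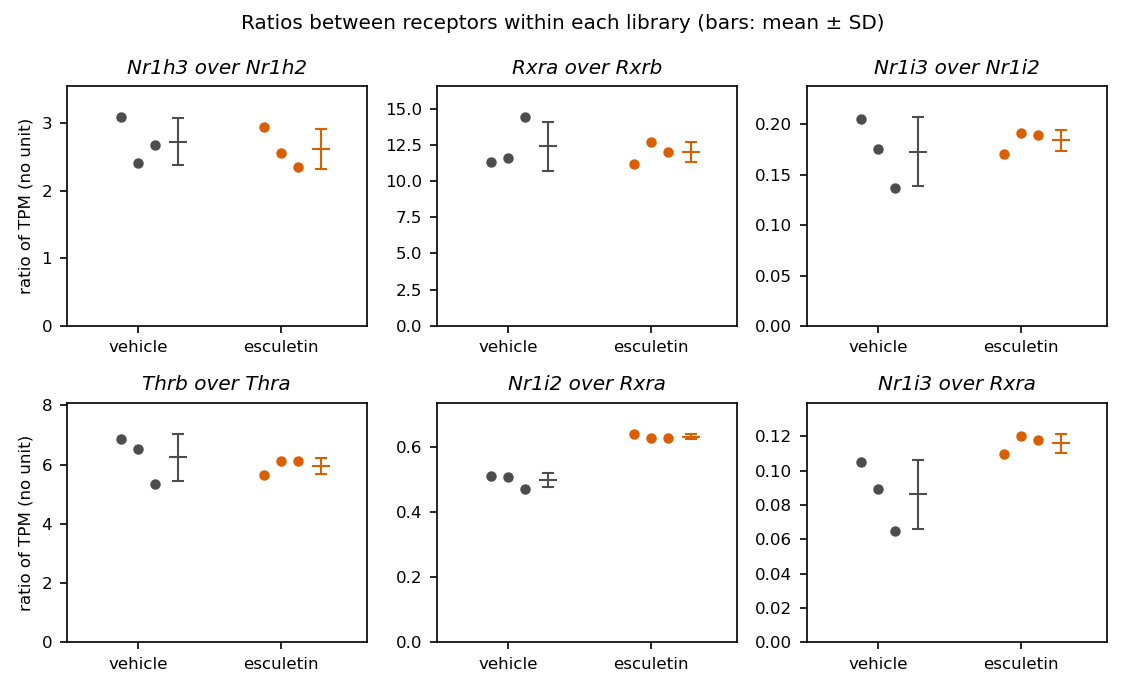
Ratios of TPM between receptors within each library (points), with the mean ± SD beside them, on axes from 0. The ratios to Rxra in the lower row are apart between the groups (Nr1i2 over Rxra 0.497 and 0.631 on average), and the other 4 ratios overlap.

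The counts of both liver X receptors overlapped between the groups. Nr1h3 (ENSMUSG00000002108, minus strand of chr2:91014394-91033417), the LXRα known from liver and macrophages, was at 69.8, 72.2 and 73.7 CPM with vehicle and 78.3, 78.9 and 68.5 CPM with esculetin. Esculetin libraries 1 and 2 lay above all vehicle libraries and esculetin library 3 below them. The log2 fold change of Nr1h3 was 0.07 (95% interval -0.11 to 0.24, unadjusted p = 0.432). Nr1h2 (ENSMUSG00000060601, minus strand of chr7:44199036-44203406), the ubiquitous LXRβ, was at 15.5, 20.5 and 18.9 CPM against 18.3, 21.1 and 19.9 CPM, with overlapping groups. Its log2 fold change was 0.11 (95% interval -0.16 to 0.38, unadjusted p = 0.38). The TPM ratio of Nr1h3 to Nr1h2 was 2.73 ± 0.344 with vehicle and 2.62 ± 0.292 with esculetin (SD, n = 3; exact permutation p = 0.7).

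Of the receptors for hepatocyte identity and bile acid synthesis, neither passed the test. Hnf4a (ENSMUSG00000017950, plus strand of chr2:163348728-163414830) was at 440, 478 and 588 CPM with vehicle and 533, 512 and 586 CPM with esculetin. Vehicle library 3 was the highest of all 6 and vehicle libraries 1 and 2 the lowest. The log2 fold change of Hnf4a was 0.11 (95% interval -0.14 to 0.37, unadjusted p = 0.332), and without vehicle library 3 it was 0.25 (unadjusted p = 0.0287). Nr5a2 (ENSMUSG00000026398, minus strand of chr1:136770303-136888186) was at 93.2, 88.1 and 79.2 CPM against 88.2, 86.5 and 76.6 CPM, with ranges that overlapped for most of their length. Its log2 fold change was -0.05 (95% interval -0.25 to 0.15, unadjusted p = 0.578).

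The thyroid hormone receptor and the orphan repressor were the most variable members among vehicle libraries. Thrb (ENSMUSG00000021779, minus strand of chr14:4429815-4809435), the main thyroid hormone receptor of the liver, was at 49.7, 65.3 and 40.0 CPM with vehicle and 47.4, 50.0 and 50.6 CPM with esculetin. The esculetin libraries lay within the vehicle range, and the SD was 24.7% of the mean with vehicle and 3.38% with esculetin, a difference in spread that was not tested. The log2 fold change of Thrb was -0.07 (95% interval -0.40 to 0.26, unadjusted p = 0.655). The TPM ratio of Thrb to its paralog Thra was 6.24 ± 0.799 with vehicle and 5.96 ± 0.273 with esculetin (SD, n = 3; exact permutation p = 0.6). Nr2f6 (ENSMUSG00000002393, minus strand of chr8:71826456-71835239) was at 9.74, 14.0 and 9.41 CPM against 10.0, 11.5 and 11.3 CPM, again within the vehicle range. Its log2 fold change was -0.02 (95% interval -0.38 to 0.35, unadjusted p = 0.913). Exons of Ocel1 on the opposite strand cover 57.1% of the exon bases of Nr2f6, so its counts carry the same doubt as those of Nr1i3, and Ocel1 (1619 counts over the 6 libraries) had a log2 fold change of -0.42 (unadjusted p = 0.0117).

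Over the 8 receptors whose unadjusted p was over 0.05, the 95% intervals of the fold change lay between 0.757 (Thrb) and 1.3 (Nr1h2), so with these libraries changes of 1.5-fold in either direction were outside every interval. The interval of Nr1i2 (up to 1.38) also lay under 1.5, and that of Nr1i3 (up to 1.64) reached past it.

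**Figure D3:**
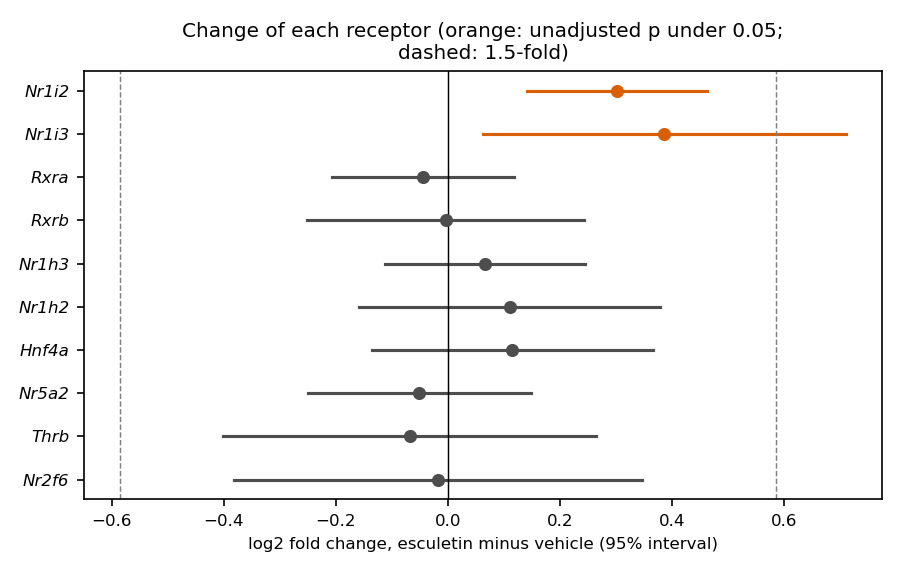
Log2 fold change (esculetin minus vehicle, edgeR) of each receptor with its 95% interval. Nr1i2 (0.30) and Nr1i3 (0.39) lie above 0 with their intervals, the other 8 intervals include 0, and the interval of Nr1i3 alone crosses a dashed line at 1.5-fold.

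Levels can be compared between genes after division by exon length. Hnf4a was the most abundant receptor of the 10, at 335 ± 40.2 TPM in the vehicle libraries (SD, n = 3), above 97.5% of the genes tested. Rxra followed at 191 ± 4.2 TPM, Nr1i2 at 95.1 ± 5.77 TPM, Nr1h3 at 47.8 ± 0.783 TPM and Nr5a2 at 33.9 ± 3.78 TPM. Down to Nr5a2 no vehicle range touched the next. The next 4 had overlapping ranges, with Thrb at 14.1 to 24.3 TPM, Nr1h2 at 15.4 to 20.2 TPM, Nr1i3 at 12.1 to 19.9 TPM and Rxrb at 13.1 to 16.9 TPM. Over full exon length Nr2f6 was lowest, at 6.36 to 9.95 TPM, above 55.9% of the genes tested. With esculetin the means were 357 TPM for Hnf4a, 182 TPM for Rxra, 115 TPM for Nr1i2 and 21.1 TPM for Nr1i3, which put Nr1i3 above the means of Thrb (17.7 TPM) and Nr1h2 (18.8 TPM), while its range of 19.2 to 23.3 TPM still overlapped that of Nr1h2. If no counted read came from shared bases, only 24.6% of the exon bases of Nr1i3 and 42.9% of those of Nr2f6 would count as length, which sets upper limits of 67.1 TPM for Nr1i3 and 18.1 TPM for Nr2f6 with vehicle. Where the reads of these genes fell was not measured here, so the places of both in the order are uncertain. The 10 receptors summed to 751, 792 and 795 TPM with vehicle and to 787, 781 and 880 TPM with esculetin, with overlapping groups.

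**Figure D4:**
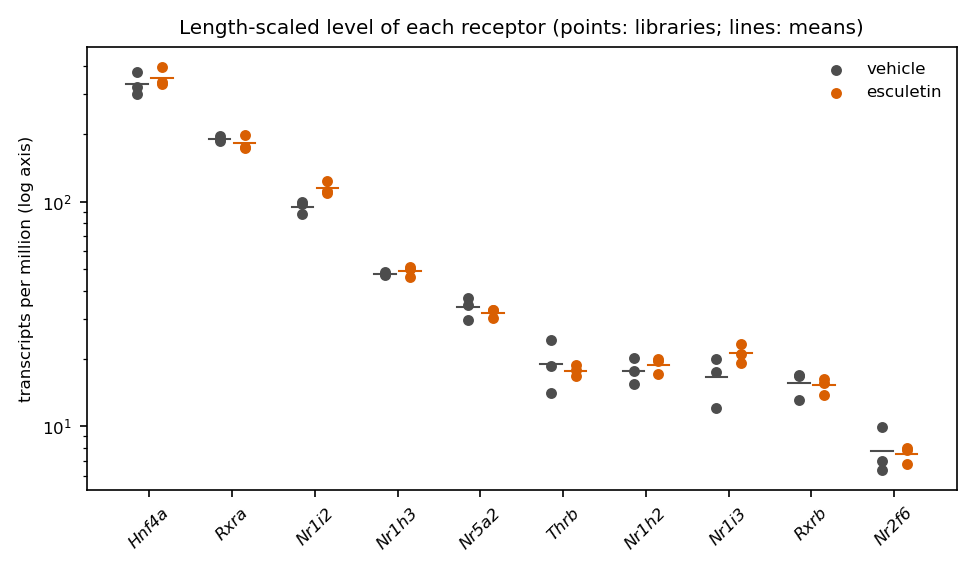
TPM of each receptor on a log axis, ordered by the vehicle mean, with libraries as points and group means as lines. Hnf4a (335 TPM) and Nr2f6 (7.76 TPM) mark the ends of the order over full exon length, and Thrb, Nr1h2, Nr1i3 and Rxrb overlap.

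Genes known as targets or partners of the receptors were counted in the same fit, from lists written with earlier results of these data known. Among PXR and CAR targets, 15 of the 27 genes tested were higher and 1 lower at an unadjusted p under 0.05, and 5 higher and 1 lower passed the study's thresholds. That is 59.3% at p under 0.05, where 11.9% of all genes passed (6.53% higher), and the study's thresholds were passed by 3.13% of all genes. Their median log2 fold change was 0.38, where that of all genes was -0.01, and 0 had an adjusted p under 0.05 (edgeR). Without vehicle library 1 the number called was 10 in place of 6. Of the 27 genes, 2 (Cyp2b10, and Cyp2b9, named after its values were seen) passed the filter on low counts only through the esculetin group, so they had to be higher, and they supply 2 of the 5 higher genes called. Among the other 25 genes 13 were higher and 1 lower at an unadjusted p under 0.05, 3 higher and 1 lower passed the study's thresholds, and the median was 0.33.

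Abcc3, an exporter of conjugates into the blood, was at 110, 74.6 and 66.2 CPM with vehicle and 160, 209 and 195 CPM with esculetin (log2 fold change 1.17, adjusted p = 0.0771, edgeR). Por, the reductase that hands electrons to the microsomal cytochromes P450, had groups apart in the same way, at 184 to 232 CPM and 273 to 304 CPM (log2 fold change 0.51, adjusted p = 0.132). Gstm3, a glutathione transferase, was at 7.25 to 11.3 CPM and 14.6 to 20.2 CPM (log2 fold change 0.99, adjusted p = 0.132). Cyp2b10 and Cyp3a11 were named whatever their rank in the list. Cyp2b10, the hallmark gene of CAR activation, had 4, 8 and 2 counts with vehicle and 31, 48 and 24 counts with esculetin, so it was near the detection floor in vehicle and remained low, at 0.717 to 1.38 CPM, with esculetin (log2 fold change 2.69, which at such counts depends on the prior count; adjusted p = 0.132). Cyp3a11, the main PXR target in mouse liver, was at 846, 740 and 459 CPM with vehicle and 342, 605 and 907 CPM with esculetin, a wide spread in both groups with a log2 fold change of -0.14 (unadjusted p = 0.663). Genes of the Cyp2b, Cyp3a and Gstm families have close paralogs, and how shared reads were counted is not given in the sources used here.

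Of the 6 genes tested for proteins that hold CAR and PXR in the cytosol, 3 were higher (6.53% of all genes were) and 0 lower at an unadjusted p under 0.05, and 1 passed the study's thresholds (3.13% of all genes did). The lowest adjusted p among them was 0.114, and the list as a group was not tested. Fkbp5, an HSP90 co-chaperone that glucocorticoids also induce, was at 29.6, 25.6 and 41.0 CPM with vehicle and 76.6, 54.8 and 80.9 CPM with esculetin (log2 fold change 1.14, adjusted p = 0.114, edgeR). The groups were well apart. Ptges3, the co-chaperone p23, had a log2 fold change of 0.33 (unadjusted p = 0.00431) and Ppp1r16a, a regulatory subunit of protein phosphatase, one of 0.27 (unadjusted p = 0.044). Hsp90ab1, the chaperone itself, was at 714 to 798 CPM and 745 to 849 CPM (log2 fold change 0.05, unadjusted p = 0.55).

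Of the 19 LXR targets, 5 were higher and 1 lower at an unadjusted p under 0.05, with a median log2 fold change of -0.10. The median was -0.03 without the 1 gene that did not pass the filter on the vehicle libraries alone. At p under 0.05 stood 31.6% of the list, against 11.9% of all genes (6.53% higher). None (0) passed the study's thresholds with edgeR or DESeq2, where 3.13% of all genes did with edgeR. For a list of 19 genes, nothing about the list follows from that 0. In the refits, 1 LXR target passed them without vehicle library 3, without esculetin library 1 or without esculetin library 3. Apoc1 (0.32), a lipoprotein component, Smpdl3a (0.34), a phosphodiesterase, and Abcg8 (0.34), a subunit of the sterol exporter into bile, were the higher genes with the smallest p. Lpl, lipoprotein lipase, was lower with a log2 fold change of -0.50 (unadjusted p = 0.00702). The sterol exporter Abca1 was at 229 to 275 CPM with vehicle and 217 to 250 CPM with esculetin (-0.10, unadjusted p = 0.283), and the lipogenic regulator Srebf1 at 206 to 270 CPM and 135 to 255 CPM (-0.22, unadjusted p = 0.314). Both overlapped between the groups.

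Of the 27 HNF4A targets tested, 3 were higher and 1 lower at an unadjusted p under 0.05, with a median log2 fold change of 0.06. The study's thresholds were passed by 0 of them with edgeR or DESeq2, and by 3.13% of all genes with edgeR. At 14.8% the share of the list was near the 11.9% of all genes, so the genes named next are single values and not a result about the list. Apoa2, an HDL apolipoprotein, was at 3467 to 3781 CPM with vehicle and 4483 to 4756 CPM with esculetin (log2 fold change 0.37, unadjusted p = 0.000803). The groups did not overlap. Apoc3, an inhibitor of lipoprotein lipase, was at 1033 to 1058 CPM and 1273 to 1457 CPM (0.36, unadjusted p = 0.0012). Coagulation factor F11 was lower by this test, with overlapping groups (-0.29, unadjusted p = 0.0478).

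Among 13 LRH-1 targets, 3 were higher and 1 lower at an unadjusted p under 0.05, with a median log2 fold change of 0.07, and 2 higher genes passed the study's thresholds. The share at p under 0.05 was 30.8%, against 11.9% of all genes (6.53% higher), and 3.13% of all genes passed the study's thresholds. Nr0b2 (SHP), a receptor without a DNA-binding domain that represses LRH-1 and other members, was at 15.3, 21.2 and 11.8 CPM with vehicle and 33.1, 32.0 and 28.4 CPM with esculetin. Its groups did not overlap, and its log2 fold change of 0.95 (adjusted p = 0.132, edgeR) was far above that of Nr5a2. Cdkn1a, the cell cycle inhibitor p21, was at 1.46 to 1.75 CPM and 2.12 to 2.94 CPM (0.75, unadjusted p = 0.00991). The steroid dehydrogenase gene Hsd3b5 had a log2 fold change of -0.41 (unadjusted p = 0.0456), and the bile acid gene Cyp8b1 one of 0.07 (unadjusted p = 0.821).

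Of the 15 thyroid hormone receptor targets tested, 1 was higher and 2 lower at an unadjusted p under 0.05, with a median log2 fold change of -0.03, and 1 lower gene passed the study's thresholds. The share at p under 0.05 was 20.0%, against 11.9% of all genes, and 3.13% of all genes passed the study's thresholds. The gene past them was G6pc1, the last enzyme of glucose release, at 923, 599 and 478 CPM with vehicle and 256, 437 and 362 CPM with esculetin (log2 fold change -0.92, adjusted p = 0.204, edgeR). Its groups did not overlap, with the lowest vehicle library at 478 CPM and the highest esculetin library at 437 CPM. Without esculetin library 1 or without esculetin library 2 the number called in this list was 2. Bcl3, a cofactor of NF-κB, had a log2 fold change of -0.53 (unadjusted p = 0.00766) and the amino acid and thyroid hormone transporter Slc16a10 one of 0.27 (unadjusted p = 0.019). The deiodinase Dio1 (0.10, unadjusted p = 0.538), the lipogenic Thrsp (0.05, unadjusted p = 0.813) and Gpd2 (-0.26, unadjusted p = 0.102) did not pass.

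The 20 coregulators tested, which link the receptors to chromatin, had 1 higher (Nr0b2) and 1 lower gene at an unadjusted p under 0.05 and a median log2 fold change of -0.06. These 10.0% were below the 11.9% of all genes, so nothing about the list follows from them. Ncoa1, a coactivator, was the lower gene, at 17.8 to 18.4 CPM with vehicle and 12.8 to 14.7 CPM with esculetin (-0.37, unadjusted p = 0.00352). The coactivator Ppargc1b (0.43, unadjusted p = 0.0585) and the corepressor subunit Tbl1xr1 (-0.18, unadjusted p = 0.068) did not pass. Of 39 other nuclear receptors 30 were tested, and 3 were higher and 3 lower at an unadjusted p under 0.05, with a median log2 fold change of -0.05 and 3 genes past the study's thresholds. The share at p under 0.05 was 20.0%, again beside 11.9% of all genes, with 3.13% of all genes past the study's thresholds. Without esculetin library 3 the number called was 5. The immediate early receptor Nr4a1 was lower, at 2.96, 3.68 and 0.948 CPM against 0.808, 0.951 and 0.806 CPM (-1.57, unadjusted p = 0.00549), with vehicle library 3 inside the esculetin range. The glucocorticoid receptor Nr3c1 had a log2 fold change of -0.17 (unadjusted p = 0.0432). The fatty acid receptor Ppara (-0.04, unadjusted p = 0.768) and the bile acid receptor Nr1h4 (-0.06, unadjusted p = 0.583), both partners of RXR, did not pass.

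**Figure D5:**
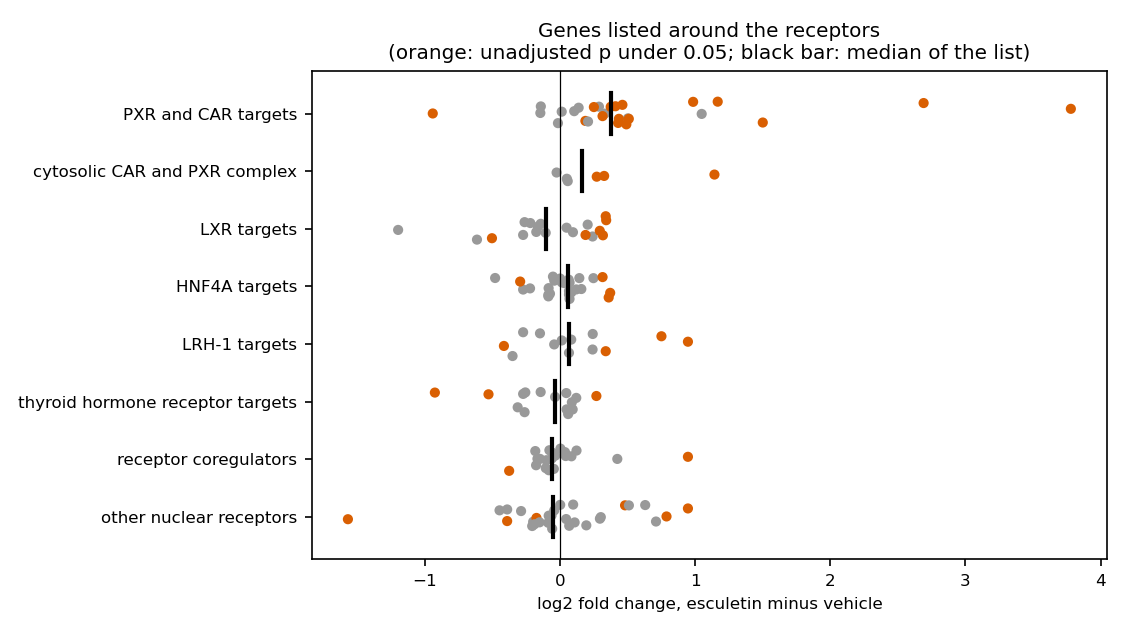
Log2 fold change (esculetin minus vehicle) of every tested gene in 8 lists of receptor targets, partners and relatives, 1 point a gene, with the median of each list as a black bar. The PXR and CAR targets have a median of 0.38 and the other 7 medians lie between -0.10 and 0.17. Some genes did not pass the filter on the vehicle libraries alone. Without them the median was 0.33 for PXR and CAR targets, -0.03 for LXR targets and -0.06 for other nuclear receptors.

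Across these lists the smallest adjusted p-value was 0.0771 (Abcc3), so 0 listed genes passed an adjusted p under 0.05 with edgeR. Several genes stand in more than 1 list, and the lists are therefore not independent.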

How the data were processed

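Liver RNA of 6 libraries (3 vehicle, 3 esculetin, 2 mice each) was analysed. According to the submitters' processing notes, the authors aligned reads to GRCm39 with HISAT2 2.2.1 and deposited counts per gene from featureCounts, as whole numbers without normalization. The strand setting and the treatment of shared reads are not given in the sources used here. Groups and replicate numbers came from the sample titles. The 10 receptors and all gene lists were chosen with earlier results of these data known. Symbols, coordinates and exon lengths came from GENCODE on GRCm39, which held 54749 of the 55357 identifiers. 1 listed symbol (Tf) did not match.

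Genes were kept with filterByExpr, normalized with TMM and tested in R 4.3.3 with edgeR 4.0.16 (quasi-likelihood F test, group as the only term), where the study used limma. P-values were adjusted over all 14433 genes by the Benjamini-Hochberg method. CPM values use TMM library sizes, TPM values use union exon length. The study's thresholds were taken as an unadjusted p under 0.05 and a fold change over 1.5. Ratios were compared with exact permutation tests. The genes named from each list are the 4 with the smallest p and a fixed few of the classic targets, and some of these are not reported here. Alternatives tried were other tests (DESeq2 1.42.0, and voom in limma 3.58.1), other scalings (the size factors of DESeq2, or library totals), other filters (none, or a minimum of 10 counts in all libraries), a replicate block, and leaving out each library. Thinning to the smallest total and the ratios to Rxra were added after the data were seen. Replicate pairs of a group differed by at least 24.2 in chi-square per gene, far from the value of about 1 of a duplicated library. Promoter windows came from the RefSeq table of GRCm38.p6 and were searched over 250 bases. The CPM of 3 counts covers counting error only, while the intervals of fold changes come from the edgeR fit and cover the spread between libraries. A protein comparison was not run.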

Additional observations from a re-analysis of the deposited data

How the results depend on the processing

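Of 140 alternative values for the 10 receptors, 124 kept their direction and side of the 0.05 threshold, 12 changed sign, 3 lost and 1 gained the threshold. The sign changes were all in members whose estimates lay near 0. Rxrb was at 0.00746 with no filter and at 0.0292 after thinning, and Nr2f6 at 0.00178 with the replicate block and at 0.0255 after thinning. Leaving out one library at a time gave log2 fold changes of -0.0914 to 0.0588 for Rxrb, -0.1114 to 0.0108 for Nr5a2, -0.1189 to 0.1933 for Nr2f6 and -0.2206 to 0.1395 for Thrb. In the same refits 1 to 2 members had an unadjusted p under 0.05 (1 without esculetin library 2 or 3), and the numbers called at the study's thresholds were 5 to 10 PXR and CAR targets, 0 to 1 LXR targets, 1 to 2 thyroid hormone receptor targets and 2 to 5 other nuclear receptors. Over all genes, the number called in these refits also moved, from 411 of 14753 without vehicle library 2 to 588 of 14866 without vehicle library 3. With no filter, 1 member (Nr1i3, adjusted p = 0.0482) passed an adjusted p under 0.05 and 2 LXR targets passed the study's thresholds. The cause was not tested. Exon length cancels in the difference of a log2 ratio between groups, so that alternative could not move it. Leaving out a library turned the sign of the 4 ratio differences whose groups overlapped. Over all genes, 477 passed an adjusted p under 0.05 with no filter, 193 with DESeq2, 15 with the replicate block, 6 in the edgeR test as reported and 5 with limma-voom. Leaving out each library in turn gave from 2 (without vehicle library 2) to 45 (without vehicle library 1) such genes.

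No pairing of the libraries by replicate number was seen over the genes tested. Their deviations from the group means correlated at -0.0689, -0.0108 and 0.00274 between libraries of the same number. A pairing limited to part of the genes was not tested. With the replicate block Nr1i2 had a log2 fold change of 0.30 (adjusted p = 0.311) and Nr1i3 one of 0.40 (adjusted p = 0.423), with 2 members at an unadjusted p under 0.05 as without it. Thinned to the smallest total, Nr1i2 was at 0.31 and Nr1i3 at 0.38.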
